A study of Azumapecten farreri with 9 samples.

Results

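Small RNA from hemocytes of Azumapecten farreri, the Zhikong scallop (Chlamys farreri in older usage), was compared between scallops that had received exosomes of either origin and scallops that had received phosphate-buffered saline (PBS). The 9 libraries of the series were all used, as 6 exosome libraries against 3 PBS libraries. The exosome libraries were 3 from scallops given exosomes tied to lipopolysaccharide (LPS exosomes), LPS being a bacterial cell wall component, and 3 from scallops given normal exosomes. Genotype, age, dose, time after injection, the number of animals per library and the cells that released the vesicles were not given in the sources used here. No label says whether the replicate libraries stand for separate animals, pools or preparations, so the p-values speak of the spread between libraries alone, and that spread may be technical. The question was which miRNAs moved the same way with vesicles of either origin. Of 417 lines in the deposited table, each a name with a sequence, those with an identical sequence were merged, which left 396. Of these, 154 reached 10 in 3 or more of the 9 libraries and were tested, and they held 99.99% of the signal.

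Mature miRNAs are short RNAs that guide Argonaute proteins to messenger RNAs, mostly through the bases 2 to 8 counted from their 5′ end, the seed. Exosomes are vesicles of membrane, shed by cells, that can carry miRNAs to other cells. Hemocytes are the circulating cells of bivalves, which engulf and kill microbes. RNA measured in hemocytes after an injection can come from the hemocytes or from vesicles they took up, and these libraries cannot tell the sources apart. In bulk samples, fewer cells of a type and less RNA per cell cannot be told apart either.

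The sequences below are those of the 7 lines that passed the test and of the forms that belong to them, given as deposited with T for U. Capitals mark the seed, by which the lines can be grouped. Both miR-1990 lines share 1 seed and differ by 1 base at the 3′ end. Likewise miR-1994a-3p and its shorter form share a seed and their 5′ part.
lgi-mir-1990-p3_1ss20AT: cGGGACTAcgtcaactacttgc
mle-miR-1990-3p_1ss10TG: cGGGACTAcgtcaactacttg
PC-3p-18918_54: aCCATGAAttcaacactgcagt
mle-miR-1994a-3p: tGAGACAGtgtgtcctcccttg
mle-miR-1994a-3p_R-2: tGAGACAGtgtgtcctccct
PC-3p-1990_749: tGTAATTTgtgctctcctc
PC-3p-1430_1100: tGTAATTTgtgcgctcctc
mle-miR-31-5p: aGGCAAGAtgttggcatagctga
cel-miR-72-5p_R+2: aGGCAAGAtgttggcatagctgaaa
mle-miR-263a-5p: aATGGCACtggtagaattcacgg

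In these names the prefix is the miRBase species of the closest entry, such as mle for the sea slug Melibe leonina, lgi for the limpet Lottia gigantea and cte for the annelid Capitella teleta. Suffixes such as R-2 or 1ss10TG give the difference from that entry. Names starting with PC- belong to predicted miRNAs with no registered name, so the first number in PC-3p-1990_749 is not a miRNA number. No test was made of which lines are true miRNAs and which are pieces of longer RNAs.

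Listed lines held 7017983 to 15596034 inferred reads per library, with 3 LPS exosome libraries at 14415588, 7340939 and 7017983, normal exosome libraries at 11118473 to 15596034 and PBS libraries at 7852801 to 10487719. Reads are inferred because the values of a library are whole multiples of 1 step, for 99.55% of values within 0.01 of a step, and no raw counts were used here. In 115 of the 154 tested lines, with 81.4% of the signal, every inferred read number was even. The number of sequenced molecules behind a value may therefore be lower than the inferred reads, which touches the depth and the level of 1 line beside another. How far it touches the comparison of low values and listed zeros between libraries was not tested. Since the lowest value above 0 was 5 reads in 8 of 9 libraries, a line listed at 0 can hide up to 4 reads. Pearson's r of log2 values across lines, which are not independent replicates, was 0.937 to 0.978 within a group and 0.903 to 0.962 between exosome and PBS libraries. The first principal component (31.5% of the variance) had LPS exosome libraries at -14.6, -7.58 and -2.72 and the others from -0.60 to 9.15. On the second (23.3%), PBS libraries stood at 13.9, 0.89 and 5.35 and exosome libraries from -8.32 to -0.12. LPS exosomes replicate 1 lay furthest out on the first and PBS replicate 1 on the second.

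Few lines passed the test between exosome and PBS libraries, which does not show that few differed. By limma on log2(value + 1), with both origins given equal weight, 7 of 154 lines passed an adjusted p under 0.05, which is 4.55%. Of these, 4 were higher (2.60%) and 3 lower (1.95%), while 38 lines (24.7%) had an unadjusted p under 0.05. Among the 7, both miR-1990 forms were higher and the predicted PC-3p-18918_54 and miR-1994a-3p were lower with vesicles of either origin, by a rule that asks each origin alone for the same sign and an unadjusted p under 0.05. Thus 4 lines (2.60% of those tested) met it, 2 higher (1.30%) and 2 lower (1.30%). For the other 3, PC-3p-1990_749, miR-31 and miR-263a, 1 origin carried the pooled difference. The filter on low values bears on 4 of the 7. PC-3p-1990_749 and both miR-1990 forms reached 10 in exosome libraries only, and PC-3p-18918_54 in PBS libraries only, so each entered the test through the group where it is high and had to differ. Such lines were 7 (exosome libraries only) and 2 (PBS libraries only) of the 154 tested. Their test values are given as descriptions. The other 3 called lines reached 10 in all 9 libraries. Both single-origin contrasts use the same PBS libraries, so meeting the rule in both is a description and not a repeat. Without PBS replicate 2, 0 lines passed in limma, with 27 at an unadjusted p under 0.05 and a lowest adjusted p of 0.0537.

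**Figure D1:**
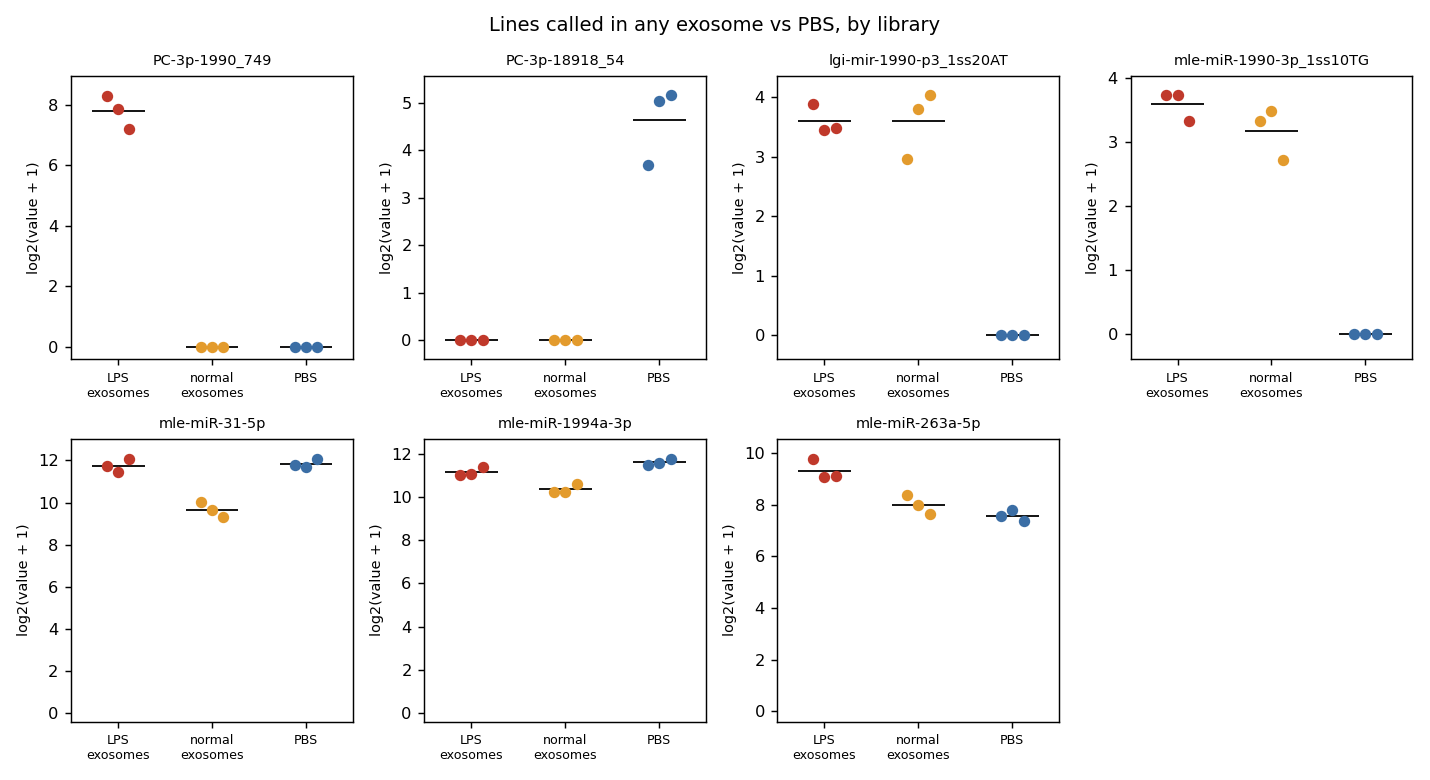
Values of the 7 called lines in each library, on a log2(value + 1) axis, with LPS exosomes, normal exosomes and PBS from left to right. Points are libraries and bars are group means (n = 3). Both miR-1990 forms lie at 0 in the PBS libraries and PC-3p-18918_54 at 0 in the 6 exosome libraries, while PC-3p-1990_749 is above 0 in LPS exosome libraries and mle-miR-31-5p is lowest in normal exosome libraries.

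miR-1990 belongs to the miRNAs first numbered in molluscs and annelids, and its 2 lines were detected with both vesicles and listed at 0 with PBS. The line lgi-mir-1990-p3_1ss20AT had values of 13.8, 9.86 and 10.2 in LPS exosome libraries, 6.81, 12.98 and 15.4 in normal exosome libraries, and 0 in each of the 3 PBS libraries. The exosome values correspond to 38, 16, 18, 12, 28 and 44 inferred reads, and the groups did not overlap. On the log2(value + 1) scale the difference was 3.60 ± 0.58 (SE; limma adjusted p = 0.00696, and 0.0472 with no filter on low values), with 3.61 for LPS exosomes and 3.60 for normal exosomes against PBS.

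The form 1 base shorter, mle-miR-1990-3p_1ss10TG, had 12.4, 12.3 and 9.07 in LPS exosome libraries, 9.08, 10.2 and 5.59 in normal exosome libraries, and 0 in the PBS libraries. Its inferred reads were 34, 20, 16, 16, 22 and 16 in the exosome libraries. Again no exosome library overlapped a PBS library, and the difference was 3.39 ± 0.58 (SE; limma adjusted p = 0.00804), with 3.60 for LPS exosomes and 3.18 for normal exosomes. LPS exosome libraries minus normal exosome libraries gave 0.00 (95% interval -1.50 to 1.51) for the longer and 0.42 (-1.08 to 1.92) for the shorter form, so differences of over 1 log2 unit between origins remain possible for either.

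With no filter on low values, the shorter form mle-miR-1990-3p_1ss10TG lost its call (limma adjusted p = 0.0636). Because the PBS values are 0, the size of these differences depends on what a 0 stands for, and no fold is given. With zeros set to 4 reads the log2 differences were 1.95 for the longer and 1.73 for the shorter form, and with a pseudocount of 10 they were 1.09 and 0.97. Both stayed past the threshold with those zeros and that pseudocount. These settings keep the filter that both forms passed through exosome libraries only, so this too is a description. The forms overlap in all 21 bases of the shorter one, and how the authors shared reads among such forms was not given in the sources used here. Both lines are therefore forms of 1 miRNA and not independent measurements. Of all 396 merged lines, these 2 were the ones above 0 in every exosome library and listed at 0 in every PBS library.

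PC-3p-18918_54, a predicted candidate of 22 bases, showed the opposite pattern. It was listed at 0 in the 6 exosome libraries and had 11.9, 32.0 and 34.7 in PBS libraries, or 22, 58 and 66 inferred reads. The log2 difference was -4.63 ± 0.68 (SE; limma adjusted p = 0.0049, and 0.0129 with no filter on low values), the same for each origin because all 6 values are 0. It was -3.08 with zeros set to 4 reads and -1.79 with a pseudocount of 10, still past the test. Those settings keep the filter that the line passed through PBS libraries only, so this is a description. No other tested line was above 0 in all PBS libraries and listed at 0 in all exosome libraries.

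mle-miR-1994a-3p, also of the mollusc and annelid numbers, was the called line with many reads in every library that met the rule with both origins. It had 2073, 2167 and 2649 in LPS exosome libraries, 1220, 1197 and 1544 in normal exosome libraries, and 2843, 3081 and 3483 in PBS libraries. In the deposited values every exosome library lay below every PBS library, and normal exosome libraries lay below LPS exosome libraries. With totals made equal, LPS exosomes replicate 3 lay above PBS replicate 2, so this line overlapped between exosomes and PBS. Its mean was 1808 ± 582 with exosomes (SD, n = 6) and 3136 ± 323 with PBS (SD, n = 3), a log2 difference of -0.85 ± 0.16 (SE; limma adjusted p = 0.0109). The single-origin values were -0.45 with LPS exosomes and -1.25 with normal exosomes, and LPS exosomes minus normal exosomes was 0.80 (95% interval 0.38 to 1.22; limma adjusted p = 0.0388). The sign was shared but the size was not. With totals made equal the adjusted p was 0.054 and with quantile normalization 0.0897, without PBS replicate 3 it was 0.0734, with the exosome libraries as 1 group 0.182 and with no filter 0.0514, and the rule of either origin was met in 12 of 23 alternatives.

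Its form shorter by 2 bases, mle-miR-1994a-3p_R-2, gave 950, 922 and 909 with LPS exosomes, 608, 629 and 867 with normal exosomes, and 985, 1569 and 1796 with PBS. In the deposited values these groups did not overlap either, but the difference of -0.81 ± 0.22 (SE) did not pass the test over all lines (limma adjusted p = 0.0821).

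**Figure D2:**
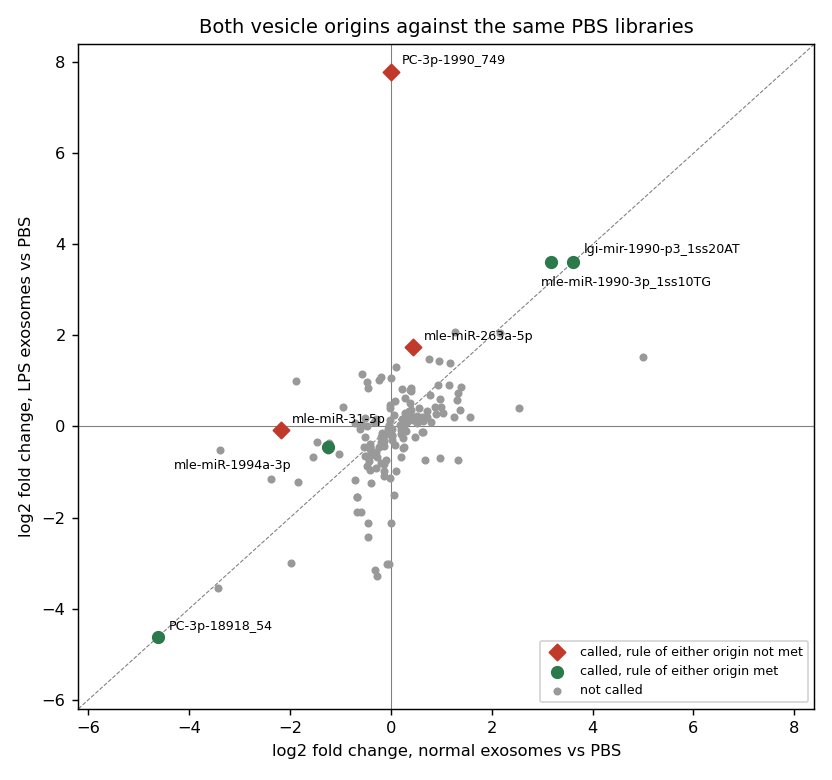
Each tested line by its log2 difference of value + 1 with normal exosomes vs PBS (horizontal axis) and with LPS exosomes vs PBS (vertical axis). Both axes use the same 3 PBS libraries, so lines spread along the dashed line of equal values in part for that reason. Green circles are the 4 called lines that met the rule of either origin, red diamonds the 3 that did not, such as PC-3p-1990_749 at 0.00 with normal exosomes and 7.79 with LPS exosomes, and grey points are lines not called.

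The other 3 called lines differed between origins. PC-3p-1990_749, a predicted candidate of 19 bases, had 313.2, 234.2 and 146.2 in LPS exosome libraries and was listed at 0 in the normal exosome and PBS libraries. Its pooled log2 difference of 3.90 ± 0.56 (SE; limma adjusted p = 0.0049, and 0.0205 with no filter on low values) is the average of 7.79 for LPS exosomes and 0.00 for normal exosomes. The origins differed by 7.79 (95% interval 6.35 to 9.23; limma adjusted p = 7.9e-05). The line reached 10 in LPS exosome libraries only, so it entered the test through them and this contrast, too, is a description. An exact two-sided permutation test of the 6 exosome against the 3 PBS libraries gave p = 0.476, and with the exosome libraries treated as 1 group the limma adjusted p was 0.379. The model with 3 group means and the one with 1 exosome group thus differ in this call.

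A near copy of this line, PC-3p-1430_1100, differs from it by T13G, with the base of PC-3p-1990_749 given first and positions counted from 1 at the 5′ end. The near copy was present in every library, with 88.1, 101 and 49.9 in LPS exosome, 83.99, 78.8 and 178 in normal exosome and 222.8, 193 and 121 in PBS libraries. PC-3p-1990_749 made up 78.0, 69.9 and 74.6% of the pair in LPS exosome libraries and 0% in the other 6. The log2 difference of PC-3p-1430_1100, exosome minus PBS, was -0.94 ± 0.38 (SE) and did not pass the test (limma adjusted p = 0.172). Both are uncertain, because the assignment of reads between such near copies was not given in the sources used here.

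mle-miR-31-5p belongs to a family known from mammals for roles in immune and epithelial cells. It had 3448, 2783 and 4318 in LPS exosome libraries, 1029, 816 and 633 in normal exosome libraries, and 3487, 3312 and 4290 in PBS libraries. LPS exosome libraries overlapped PBS libraries, and all normal exosome libraries lay below both. The pooled log2 difference was -1.13 ± 0.21 (SE; limma adjusted p = 0.0109), with -0.09 for LPS exosomes and -2.18 for normal exosomes. The origins differed by 2.09 (95% interval 1.55 to 2.63; limma adjusted p = 0.000673), and the exact permutation test of 6 against 3 libraries gave p = 0.19. Without PBS replicate 3 the limma adjusted p of mle-miR-31-5p was 0.0723, without LPS exosomes replicate 1 and PBS replicate 1 it was 0.0516, and with the exosome libraries as 1 group it was 0.336. The line cel-miR-72-5p_R+2, which holds the whole of mle-miR-31-5p and 2 further bases, was low, with 12.4, 9.86 and 19.3 in LPS exosome, 0, 6.49 and 0 in normal exosome and 21.6, 15.4 and 22.1 in PBS libraries. Its log2 difference, exosome minus PBS, was -1.95 ± 0.75 (SE) and did not pass (limma adjusted p = 0.172).

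mle-miR-263a-5p is a member of a family that protects sensory bristle cells from death in Drosophila. It had 877, 541 and 545 in LPS exosome libraries, 331, 256 and 198 in normal exosome libraries, and 188, 222.8 and 163 in PBS libraries. LPS exosome libraries were highest, and normal exosome libraries overlapped the PBS libraries. The pooled log2 difference was 1.09 ± 0.25 (SE; limma adjusted p = 0.0424), with 1.74 for LPS exosomes and 0.43 for normal exosomes, and LPS exosomes minus normal exosomes was 1.31 (95% interval 0.65 to 1.97; limma adjusted p = 0.0369). This was the least stable call, past the test in 11 of 24 alternatives and in 1 of 9 that leave out a library.

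Set against each origin alone, 5 of the 7 lines also passed in LPS exosomes vs PBS, where 7 lines passed (4.55%), and 5 of the 7 in normal exosomes vs PBS, where 8 passed (5.19%). Only 3 of the 7 passed in both. LPS exosomes vs normal exosomes also gave 7 lines (4.55%), of which 4 are among the 7 pooled calls. At an unadjusted p under 0.05 the shares were 25.3% of lines for LPS exosomes vs PBS, 16.9% for normal exosomes vs PBS and 16.9% for LPS exosomes vs normal exosomes. Of all tested lines, 11 (7.14%) had that p and 1 sign in both single-origin contrasts, called in the pooled contrast or not.

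**Figure D3:**
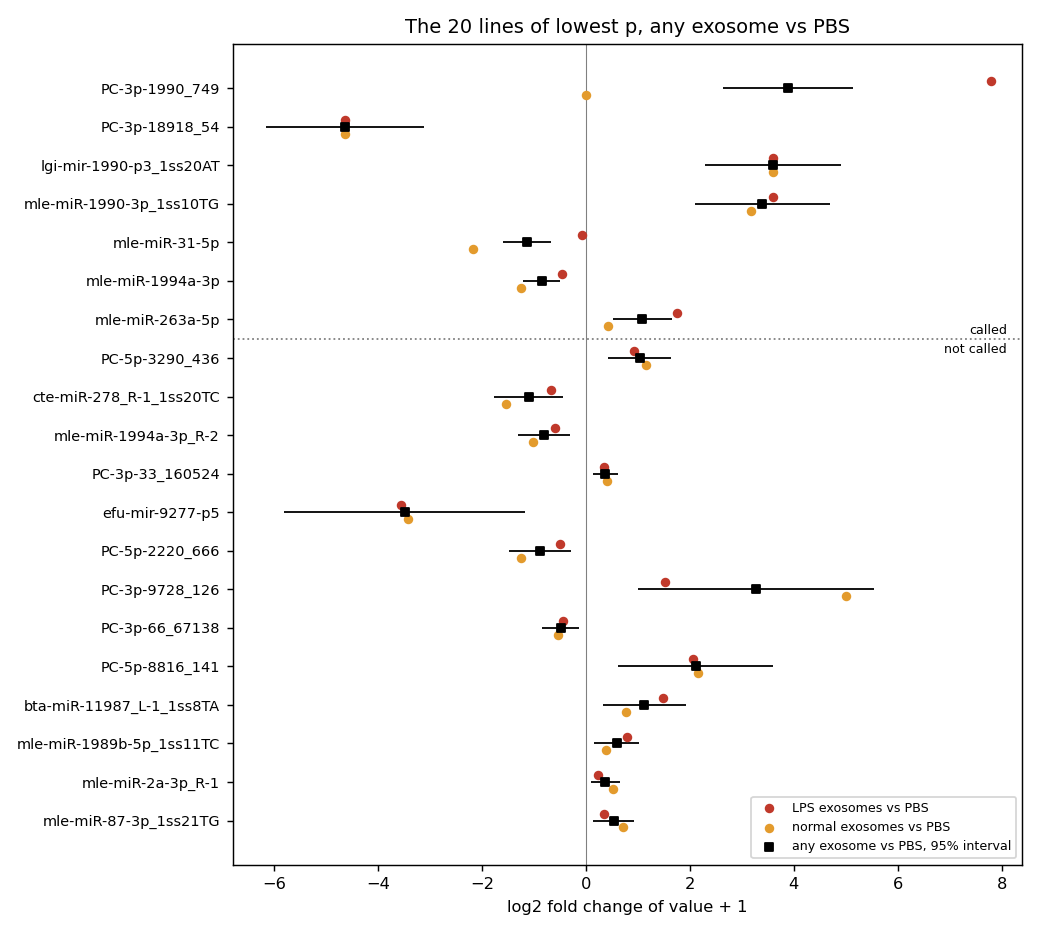
The 20 lines of lowest p in any exosome vs PBS, lowest at the top, on an axis of log2 difference of value + 1. Black squares with bars are the pooled difference and its 95% interval, red circles LPS exosomes vs PBS and orange circles normal exosomes vs PBS. Red and orange circles lie close together for lgi-mir-1990-p3_1ss20AT (3.61 and 3.60) and far apart for PC-3p-1990_749 (7.79 and 0.00), and the dotted line parts the 7 called lines from the 13 that were not.

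Below the threshold, several lines kept the 6 exosome libraries apart from the 3 PBS libraries. This held for 18 of 154 lines (11.7%), 8 higher (5.19%) and 10 lower (6.49%), of which 4 were called lines and 14 were not. A line without overlap has by that alone an exact two-sided permutation p of 0.0238, the smallest that the 84 splits of 6 against 3 can give. That p therefore adds nothing to the separation by which the 18 were picked. The filter on low values bears on some of them. Both miR-1990 forms and PC-5p-8816_141 reached 10 in exosome libraries only. PC-3p-18918_54 and efu-mir-9277-p3 reached 10 in PBS libraries only. After scaling to equal totals 11 lines were without overlap, 4 higher and 7 lower. In all 3 scalings (as deposited, equal totals and median of ratios) 9 of the 18 were without overlap. The sequences of 4 such lines that the text describes are given with the seed in capitals.
PC-5p-3290_436: cCTTATCActtgttcgtcacagt
PC-3p-33_160524: tTGTGCGTaggacagcggttgt
PC-5p-8816_141: tCGTCAAAgtggttgtgatgtg
efu-mir-9277-p5: tCGTGGCCgagtggttaag

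PC-5p-3290_436, a predicted candidate, came next after the called lines. It had 64.8, 57.9 and 49.9 in LPS exosome libraries, 61.3, 67.7 and 72.7 in normal exosome libraries, and 30.3, 37.5 and 23.1 in PBS libraries. Its mean was 62.4 ± 7.97 with exosomes (SD, n = 6) and 30.3 ± 7.19 with PBS (SD, n = 3), with a log2 difference of 1.03 ± 0.27 (SE; limma adjusted p = 0.07). The values with either origin were close, at 0.92 with LPS exosomes and 1.15 with normal exosomes.

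PC-3p-33_160524 was the most abundant line without overlap among those with the 20 lowest p-values. It had 19686, 23177 and 21320 in LPS exosome libraries, 20318, 23292 and 22413 in normal exosome libraries, and 16566, 17355 and 16226 in PBS libraries. The log2 difference was small, 0.37 ± 0.11 (SE), with 0.35 and 0.39 for LPS and normal exosomes, and did not pass (limma adjusted p = 0.0821). It was 0.16 under quantile normalization (limma adjusted p = 0.473), and with totals made equal the groups overlapped.

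PC-5p-8816_141 was low, with 11.3, 9.86 and 9.63 in LPS exosome, 12.5, 7.88 and 13.6 in normal exosome and 0, 4.41 and 2.63 in PBS libraries. It reached 10 in exosome libraries only, so it entered the test through the group where it is high. Its log2 difference of 2.11 ± 0.67 (SE) did not pass (limma adjusted p = 0.0997). Of the named lines, mle-miR-1989b-5p_1ss11TC, again of the mollusc and annelid numbers, ranged from 321 to 537 (median 425) with exosomes and from 243 to 318 (median 283) with PBS, with a log2 difference of 0.59 ± 0.19 (SE; limma adjusted p = 0.102). With totals made equal its groups overlapped, as normal exosomes replicate 2 lay below PBS replicate 1. Its form with 1 more base, PC-5p-5000_271, overlapped between the groups, from 12.05 to 60.4 with exosomes and from 18.9 to 30.9 with PBS.

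On the lower side, efu-mir-9277-p5 had 0, 8.63 and 7.93 in LPS exosome libraries, 5.67, 0 and 16.1 in normal exosome libraries, and 56.2, 38.6 and 60.9 in PBS libraries. Its log2 difference was -3.49 ± 1.03 (SE; limma adjusted p = 0.0994), with -3.56 and -3.42 for LPS and normal exosomes. The line named for the other arm of that entry, efu-mir-9277-p3, lies outside the naming rule and is given here after its values were seen: it ran from 0 to 9.08 (median 2.45) with exosomes and from 13.7 to 15.1 (median 14.3) with PBS.

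PC-5p-2220_666 ranged from 47.7 to 101 (median 80.4) with exosomes and from 113 to 177 (median 122.4) with PBS, with a log2 difference of -0.88 ± 0.26 (SE; limma adjusted p = 0.0997). By contrast cte-miR-278_R-1_1ss20TC, of a family that acts in energy balance in Drosophila, overlapped: it had 82.3, 69.0 and 85.0 with LPS exosomes, 37.5, 42.6 and 48.2 with normal exosomes, and 80.0, 144.5 and 171 with PBS. Its log2 difference was -1.11 ± 0.30 (SE; limma adjusted p = 0.075). PC-3p-9728_126 was high mainly with normal exosomes, at 51.1, 55.6 and 72.7, against 17.5, 7.40 and 0 with LPS exosomes and 0, 5.51 and 0 with PBS. No PBS library reached the filter, so this line entered the test through exosome libraries only.

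The remaining lines among the 20 lowest p-values had higher medians with exosomes and did not pass. bta-miR-11987_L-1_1ss8TA ranged from 28.3 to 84.5 (median 50.3) with exosomes and from 18.2 to 33.1 (median 22.2) with PBS. mle-miR-2a-3p_R-1, of the family that represses pro-apoptotic genes in Drosophila, ranged from 24642 to 37067 (median 28366) with exosomes and from 20896 to 25161 (median 21662) with PBS. mle-miR-87-3p_1ss21TG ranged from 2588 to 4165 (median 3225) with exosomes and from 1917 to 2903 (median 1962) with PBS. In all 3 at least 1 exosome library overlapped the PBS range.

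Of the other 4 lines without overlap in the deposited values, PC-3p-479_3819 falls under the naming rule as a form of mle-miR-2a-3p_R-1. The rest fall outside it and were chosen after their values were seen. PC-5p-238_10209 ranged from 1012 to 1323 with exosomes and from 1435 to 1784 with PBS. PC-3p-8255_152 ranged from 20.96 to 66.4 with exosomes and from 68.3 to 80.5 with PBS. PC-3p-45_111826 ranged from 11649 to 14552 with exosomes and from 11026 to 11448 with PBS. With totals made equal its groups overlapped, as normal exosomes replicate 1 lay below PBS replicate 1. PC-3p-479_3819, which has the seed of miR-2, ranged from 630 to 1030 with exosomes and from 438 to 625 with PBS.

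None of the lines with the miR-92 seed, a family conserved from insects to mammals, passed the test. There were 8 tested lines with that seed, all with a negative pooled log2 difference at a median of -0.37 (chi-miR-92a-3p turns to 0.02 under quantile normalization), but 0 of 8 passed in limma and 4 had an unadjusted p under 0.05, against 24.7% of all lines. With normal exosomes alone chi-miR-92a-3p stood at 0.20, and 2 of the 8 lines were without overlap in the deposited values. The most abundant and the most different of them are shown, with the seed in capitals.
lgi-miR-92_1ss9TC: aATTGCACctgtcccggcctgc
PC-3p-204_12326: aATTGCACctgtcccggcctgt
cte-miR-92b_2ss10GC11TG: aATTGCACtcgtcccggcctgc
PC-3p-66_67138: aATTGCACtcgtcccggcctgcc

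PC-3p-66_67138 had 5754, 5158 and 4544 in LPS exosome libraries, 5341, 4562 and 4596 in normal exosome libraries, and 8776, 6335 and 6117 in PBS libraries, without overlap as deposited. With totals made equal, LPS exosomes replicates 2 and 3 lay above PBS replicate 2. The log2 difference of PC-3p-66_67138 was -0.49 ± 0.15 (SE; limma adjusted p = 0.0997). The form 1 base shorter, cte-miR-92b_2ss10GC11TG, ranged from 24246 to 28200 (median 27213) with exosomes and from 29383 to 45051 (median 32639) with PBS, also without overlap as deposited. With totals made equal, LPS exosomes replicate 3 lay above PBS replicate 2 for this form too. PBS replicate 1 was the highest of the 9 libraries for 5 of the 8 lines, and a normal exosome library for the other 3. The summed share of the 8 lines was 2.96 ± 0.372% of the signal with exosomes (SD, n = 6) and 4.44 ± 2.06% with PBS (SD, n = 3), and 3.25% in the PBS libraries without replicate 1. Without that library 7 of the 8 log2 differences were negative.

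**Figure D4:**
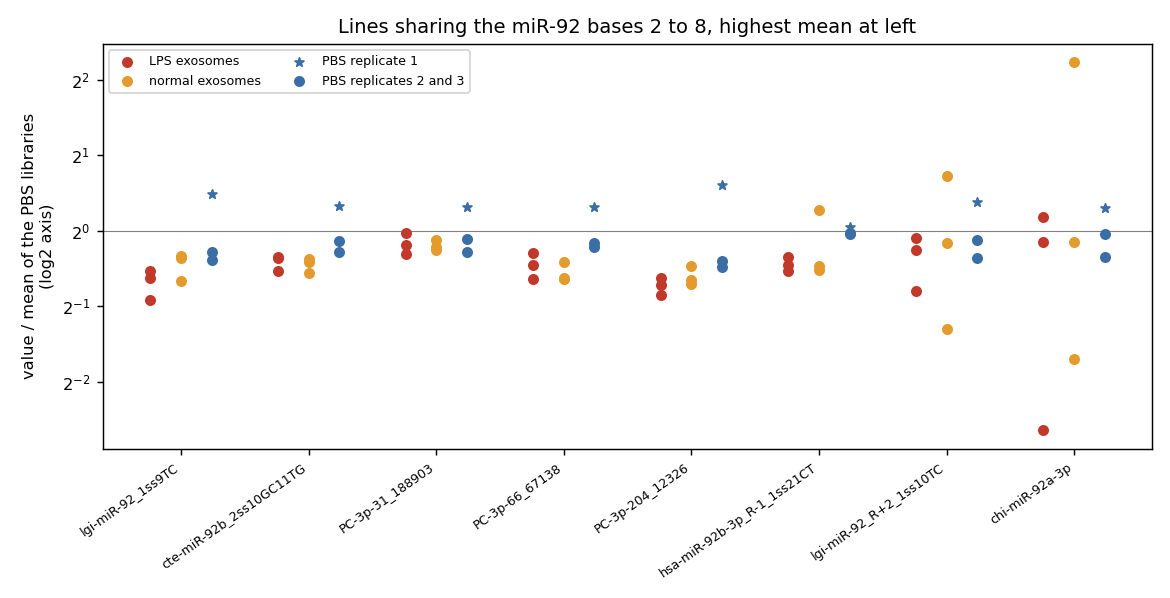
The 8 tested lines with the miR-92 seed, highest mean at left. Each point is a library's value divided by the mean of the PBS libraries for that line, on a log2 axis, for LPS exosomes (red), normal exosomes (orange) and PBS (blue, with replicate 1 as a star). Values are as deposited. The star is the highest point for 5 of the 8 lines, and in PC-3p-66_67138 and cte-miR-92b_2ss10GC11TG all exosome points lie below all PBS points. With totals made equal this separation holds for neither line.

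None of the 10 most abundant lines passed the test. Together, the 10 lines of highest mean made up 94.7 ± 0.713% of the signal with exosomes (SD, n = 6) and 94.5 ± 0.794% with PBS (SD, n = 3), with the lowest limma adjusted p at 0.172 for lgi-miR-92_1ss9TC. The share of that line differed most in proportion, at 1.86 ± 0.209% with exosomes (SD, n = 6) and 2.96 ± 1.496% with PBS (SD, n = 3), where replicate 1 stood at 4.68%. The predicted PC-5p-1_12698927, which has the miR-125 seed, took 42.8 ± 3.41% with exosomes (SD, n = 6) and 44.3 ± 1.63% with PBS (SD, n = 3). The share of mle-miR-184-3p, an abundant miRNA conserved among animals, was 23.0 ± 1.99% with exosomes (SD, n = 6) and 22.8 ± 0.244% with PBS (SD, n = 3). For lgi-miR-100 it was 15.7 ± 1.76% with exosomes (SD, n = 6) and 13.3 ± 1.79% with PBS (SD, n = 3), and for eca-let-7c, of the family that times development in worms and flies, 3.12 ± 0.360% with exosomes (SD, n = 6) and 2.58 ± 0.502% with PBS (SD, n = 3). Of the other abundant lines, mle-miR-133-3p_2ss15TC19TC, of a family known from muscle, took 3.60 ± 0.505% with exosomes (SD, n = 6) and 3.36 ± 0.253% with PBS (SD, n = 3), and mle-miR-71-5p 0.896 ± 0.153% with exosomes (SD, n = 6) and 0.809 ± 0.0579% with PBS (SD, n = 3). mle-miR-96a-5p_1ss19GC took 1.78 ± 0.236% with exosomes and 2.11 ± 0.461% with PBS, mle-miR-2b-3p_1ss11AT 1.30 ± 0.189% with exosomes and 1.55 ± 0.526% with PBS, and mle-miR-1175-3p 0.700 ± 0.0884% with exosomes and 0.681 ± 0.126% with PBS (SD, n = 6 and 3). A p that misses the threshold does not show that these levels are equal.

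By list, the mollusc and annelid numbers, miR-1984 to miR-1999 and miR-2001, held 3 of the 7 calls. Of 6 tested lines 2 were called higher, against 2.60% of all 154 lines, and 1 lower, miR-1994a-3p, against 1.95%. Those higher are the miR-1990 forms, which are 1 miRNA listed at 0 with PBS. The list's median log2 difference was 0.52 against -0.02 over all lines. Of the 6 differences 4 were positive, both miR-1990 forms among them, and 2 negative. The miR-1990 forms reached 10 in exosome libraries only and had to differ, so the list's median and count of calls are descriptions. The other 3, miR-1994a-3p_R-2, mle-miR-1989b-5p_1ss11TC and lgi-miR-1985_R-1, did not pass, and the last of them ranged from 1258 to 2939 with exosomes and from 1171 to 2337 with PBS. The list of immune-associated families had 6 tested lines, of which mle-miR-31-5p fell and 0 rose, against 1.95% and 2.60% of all lines. Its pooled median was -1.12, but the medians by origin were nearer to none, at -0.38 with LPS exosomes and -0.51 with normal exosomes. Of the 6 pooled differences 5 were negative and 1 positive. Its other members did not pass and include mle-miR-8-3p and mle-miR-29a-3p, whose ranges with exosomes (86.7 to 284 and 80.1 to 144.2) held most or all of those with PBS (174 to 243 and 57.3 to 133.4). They also include cte-miR-278_R-1_1ss20TC, at -1.11 (limma adjusted p = 0.075), and chi-miR-29a-3p, the lowest of the list at -1.53. The positive one is mle-miR-29a-3p, at 0.15.

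Of the let-7, miR-100 and miR-125 lines 0 of 13 passed (median 0.34), nor did any of the 11 lines of miR-2 and miR-71 (median 0.30), the 5 named lines of miR-92 (median -0.34), the 2 of miR-10 (0.09), the 3 of miR-750 and miR-1175 (-0.22) or the 2 of the stress and metabolism list (0.15). For miR-34, miR-277 and miR-317, 0 of 3 passed, with a median of 0.19 that turns to -0.13 under quantile normalization. Of 52 predicted candidates 1 was called higher and 1 lower, near the 2.60% and 1.95% of all lines, with a median of -0.03 that turns to 0.02 under quantile normalization. By length, the one called lower is among the 39 of 20 to 24 bases and the one called higher among the 13 outside that range.

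Lists of miRNAs best known from other cell types were read beside these. Muscle miRNAs had 4 tested lines, 0 passed, and the list's summed share ranged from 2.84 to 4.22% with exosomes and from 3.12 to 3.57% with PBS, with a median log2 difference of 0.02 that turns to -0.03 with equal totals and to -0.0029 with median-of-ratios scaling. The neural list had 1 tested line, lgi-miR-7, from 207 to 824 with exosomes and from 494 to 608 with PBS. The epithelial and sensory list had 6 tested lines, of which mle-miR-263a-5p rose and 0 fell, against 2.60% and 1.95% of all lines, with a median of -0.32 and a summed share from 1.37 to 2.01% with exosomes and from 1.71 to 2.63% with PBS. Gut and endocrine miRNAs had 3 tested lines, 0 passed, and a summed share from 0.00733 to 0.0221% with exosomes and from 0.00902 to 0.0151% with PBS. The vertebrate blood and liver list had 1 tested line, aca-miR-122-5p_R+1, named for a miRNA known from vertebrate liver, with 29.1, 106 and 158 in LPS exosome, 135, 524 and 62.2 in normal exosome and 21.6, 123.5 and 119 in PBS libraries. The part of other cells or of foreign RNA in the results was not tested. No list of miRNAs that define hemocytes was at hand, so the labelled tissue was not checked by a marker.

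**Figure D5:**
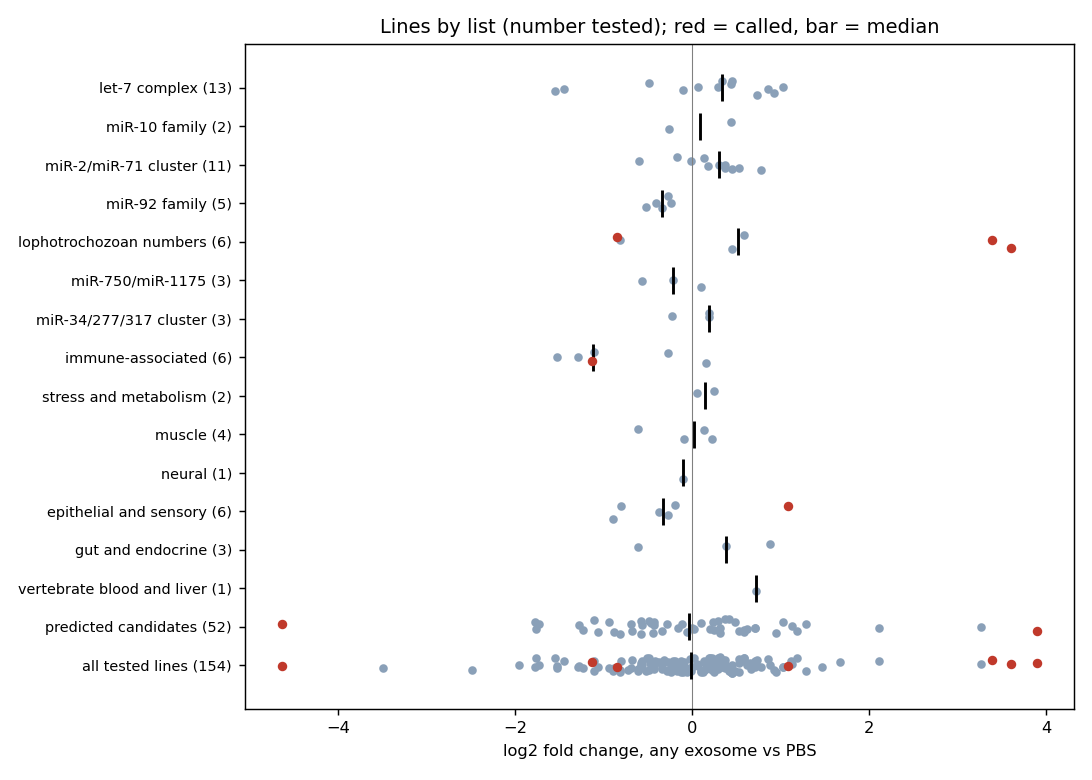
Log2 differences of value + 1, any exosome vs PBS, of the tested lines by list, with the number tested in brackets. Each point is 1 line, red where called, and the black bar is the list's median. The lophotrochozoan numbers, miR-1984 to miR-1999 and miR-2001, hold 3 red points of 6, the let-7 complex 0 of 13, and all tested lines 7 of 154 (4.55%), with a median of -0.02. Of those 3 red points 2 are the miR-1990 forms, which reached 10 in exosome libraries only.

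The called lines had little in common beyond this. Their lengths ran from 19 to 23 bases in lines called higher and from 22 to 23 in lines called lower, against 18 to 26 for all tested lines. Of the 4 lines called higher 1 starts with T and of the 3 called lower 1 does, against 57.8% of all tested lines. Of the 4 called higher 3 are listed at 0 in some library, as is 1 of the 3 called lower, against 34 of the 154 tested lines. When only the 120 lines above 0 in all 9 libraries were tested, a choice made after the data were seen, 2 lines passed (0 higher and 2 lower).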

How the data were processed

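Hemocyte RNA went through Illumina's TruSeq small RNA preparation and HiSeq sequencing, and unwanted reads (adapter dimers, repeats and common RNA classes) were taken out by ACGT101-miR, per the labels' protocols. The deposited signal values are normalized counts, per the file headers. The normalization method, aligner, genome build and release of miRBase were not given in the sources used here. Sequences are the deposited ones, and no genome positions are given. Lines with identical sequence were merged (41 lines sharing 20 sequences), and lines that reached 10 in 3 or more libraries were tested.

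The test was limma (version 3.58.1, trended and robust, under R 4.3.3 with statmod 1.5.0). It was applied to log2(value + 1), with 1 mean per group fitted to 9 libraries and the mean of both exosome groups against PBS as contrast. For low lines a log2 difference on this scale depends on the added 1 and on what a listed 0 stands for. It can understate the change, or overstate it where a 0 hides reads. Adjusted p-values are Benjamini-Hochberg over 154 lines, called at under 0.05. The step was tested on simulated data. For single lines, an exact two-sided permutation test of 6 against 3 libraries was used (scipy 1.17.1). The planned form of the test for raw counts was not used, as the values are normalized.

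Named were the called lines with those next in p up to 20, the 10 of highest mean, up to 4 lines per list and forms of the first set that contain one another or share a seed. Lists go by miRNA number, whatever the species prefix. Members, lists and tests were chosen with earlier results of these data known. Alternatives covered scaling, pseudocounts, zeros, filters, merging, limma settings, the replicate number as a block and leaving out each library.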

Additional observations from a re-analysis of the deposited data

Results flagged for a closer look

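Of the 7 lines called in exosome libraries against PBS libraries, 4 also differed between the vesicle origins by limma's contrast of LPS exosomes against normal exosomes, which was tested over the same 154 lines. PC-3p-1990_749 differed by 7.79 on the log2(value + 1) scale (adjusted p = 7.9e-05) and was higher in all 3 LPS exosome libraries, since it was listed at 0 in the other 6. It passed the filter on low values through LPS exosome libraries only, so its contrast is a description. mle-miR-31-5p differed by 2.09 (adjusted p = 0.000673), mle-miR-263a-5p by 1.31 (adjusted p = 0.0369) and mle-miR-1994a-3p by 0.80 (adjusted p = 0.0388), each with all 3 LPS exosome libraries above all 3 normal exosome libraries.

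Among the 6 exosome libraries, 2 of 29 lines looked at held a value far from the others by Dixon's gap over range at its 95% critical value, which chance alone passes in about 5% of groups. Both have the miR-92 seed, as have 8 of the 29 lines looked at, and whether the shared seed bears on this was not tested. hsa-miR-92b-3p_R-1_1ss21CT had 790 in normal exosomes replicate 3, with the next highest at 513. chi-miR-92a-3p had 53.3 in normal exosomes replicate 2, with the next highest at 12.9. In that same library aca-miR-122-5p_R+1, the 1 tested line of the vertebrate blood and liver list, also had its highest value, 524, and whether they share a source was not tested.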

How the results depend on the processing

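The count of 7 called lines (4 higher, 3 lower) became 19 with array weights (9 higher, 10 lower), 3 with the exosome libraries as 1 group (2 higher, 1 lower), 2 among lines above 0 in all 9 libraries (chosen after the data were seen) and 0 to 9 when 1 library was left out. It was 0 without PBS replicate 2 and 4 without PBS replicate 3. Without LPS exosomes replicate 1 and PBS replicate 1 together, it was 8. The count of 4 lines moving with either origin became 14 with array weights, 1 with a mean of 50 or more, 1 among lines above 0 in all libraries and 0 to 7 when 1 library was left out, with 0 without PBS replicate 2 and 7 without PBS replicate 1. The 7 lines that differed between LPS exosomes and normal exosomes became 3 with quantile normalization, 18 with array weights and 3 to 9 when 1 library was left out. The 18 lines without overlap became 11 with equal totals and 19 to 29 when 1 library was left out, a change that fewer libraries give by themselves. The cause of the other changes was not tested.

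Among lines not called, 3 with the miR-92 seed turned from a negative to a positive log2 difference. PC-3p-31_188903 ran from -0.29 to 0.0043 when 1 library was left out (highest without PBS replicate 1) and reached 0.038 without that library and LPS exosomes replicate 1. lgi-miR-92_R+2_1ss10TC reached 0.10 with array weights and 0.038 without both libraries, and ran from -0.51 to -0.012 when 1 library was left out. chi-miR-92a-3p reached 0.022 with quantile normalization, 0.0074 with a pseudocount of 10, 0.31 with array weights, 0.27 without both libraries, and ran from -0.73 to 0.17 when 1 library was left out, with 0.12 without LPS exosomes replicate 1 and 0.17 without normal exosomes replicate 3.

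Same-numbered libraries of different groups did not deviate together (r of deviations -0.32 to 0.29, and 4 of 9 libraries correlated best with their own number), so numbers are not taken as pairs. With the replicate number as a block, 7 lines were called (4 higher, 3 lower), the same 7, 4 moved with either origin and 8 differed between origins. Count tests on inferred reads were not run, because the scale starts at 5 reads and raw counts were not used here. Lines listed at 0 in a group are limited by depth: a 0 can hide up to 4 inferred reads.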

Other observations

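Lines too low for the test differed in presence between libraries. Of the 242 merged lines that were not tested, 134 were above 0 in 1 library only, 103 in exosome libraries only and 54 in PBS libraries only, where there are 6 exosome and 3 PBS libraries to be present in. None of these 242 was above 0 in all 6 exosome libraries and listed at 0 in all PBS libraries, and 1 was above 0 in all 3 PBS libraries and listed at 0 in all exosome libraries.

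Even inferred reads were common throughout: 306 of 396 merged lines (77.3%) had only even numbers in every library, as had 6 of the 7 called lines, the exception being mle-miR-1994a-3p. The lowest number in such lines was 6.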
